A study of Mus musculus with 4 samples.

Results

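The BH3-only proteins are the trigger-end members of the Bcl-2 family, and 8 mouse genes for them were followed: Bid, Bad, Bik, Bmf, Bbc3, Pmaip1, Hrk and Bcl2l11. Each was taken by the probe sets that carry its symbol alone in the platform annotation; 8 such probe sets were found, 1 per gene, among 19938 genes with a value in all. RNA came from mouse microglial cells, the resident macrophages of the brain, and was hybridised to 4 Affymetrix Mouse Gene 1.0 ST arrays, which read each transcript with probes along its length. There was 1 array for each of 4 groups: cells labelled Bid-/- (knockout) with lipopolysaccharide (LPS) for 3 h, cells labelled Bid-/- without LPS, wild-type (WT) cells of strain C57Bl with LPS for 3 h, and WT C57Bl cells without LPS. The strain behind the Bid-/- label, the design of the deleted allele, the age of the mice and how many cultures were used were not given in the sources used here, and no group was replicated. The series addresses the inflammatory transcription of microglia with and without Bid.

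A BH3-only protein carries a single Bcl-2 homology domain, the BH3 helix, which it inserts into the groove of other family members. Some bind and neutralise the anti-apoptotic proteins such as Bcl-2, Bcl-xL and Mcl-1, and some also activate Bax and Bak directly, which then permeabilise the outer mitochondrial membrane and release cytochrome c. Each member answers a different stress: Bid is cleaved by caspase-8 below death receptors, and the others are switched on by transcription, by loss of survival kinases or by release from a scaffold. Several are controlled after the mRNA is made, so a transcript level does not give the activity of the protein.

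The 4 arrays correlated between 0.984 and 0.996 over 28944 probe sets. Tnf, an LPS-induced cytokine, read 12.15 and 9.12 on the arrays labelled Bid-/- with and without LPS, and 12.29 and 9.42 on the WT arrays with and without LPS; Il6 read 11.38 and 7.70, against 11.48 and 7.01 in the same order. All values are taken as log2 expression, so a difference of 1 is 2-fold. All 11 microglia and macrophage markers with a value reached the floor of 4.26 (the median probe set) on at least 1 array, with array medians of 9.14 to 9.76, although P2ry12, a microglial purine receptor, read only 3.90 to 4.38. P2ry12 was named for these low readings, outside the rule for named genes given below. None of 6 neuron markers reached the floor on any array, while 8 of 9 fibroblast and mural cell markers did on at least 1. So did 5 of 7 astrocyte markers, 5 of 7 oligodendrocyte lineage markers and 1 of 9 neutrophil and lymphocyte markers. Of all 19938 genes, 11326 reached the floor on at least 1 array. Array medians were near the floor for the astrocyte (4.13 to 4.35) and oligodendrocyte lineage markers (4.19 to 4.55). They were 5.15 to 6.02 for the fibroblast and mural markers and 3.11 to 3.27 for the neutrophil and lymphocyte markers. The summed linear level of the fibroblast and mural markers was 606.7 and 724.2 on the arrays labelled Bid-/- with and without LPS, against 681.7 and 358.0 on the WT arrays with and without LPS. That of the microglia markers was 7677.2 and 10220, against 9554.2 and 11372.1. Both sums therefore moved with LPS or with the label, and their part in the results below was not tested. In bulk RNA, fewer cells of a type and less RNA per cell cannot be told apart.

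Bid, whose protein carries the death receptor signal to mitochondria, was not lower under the Bid-/- label once LPS was present. Its probe set read 5.97 on the array labelled Bid-/- with LPS and 5.53 on the array labelled Bid-/- without LPS, against 5.02 in WT with LPS and 5.69 in WT without LPS. The highest of the 4 readings was thus on an array labelled as knockout, and the lowest was in WT with LPS. Where the probes lie relative to the deleted part of the gene was not given, so the probe set may check nothing about the deletion; genotypes are called by their labels throughout. The gene lies on chromosome 6 of GRCm38.p6, at 120893119 to 120917062.

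The 2 untreated arrays differed little for Bid, by -0.16 (labelled Bid-/- minus WT), and 15.3% of 10909 genes compared were at least as far below 0. With LPS the array labelled Bid-/- was 0.95 higher than WT, a 1.93-fold difference, and only 56 of 11044 genes compared (0.507%) were at least as far above 0. LPS was accompanied by opposite shifts: Bid was 0.44 higher with LPS under the Bid-/- label and 0.67 lower with LPS in WT (-0.67). The difference of LPS response, labelled Bid-/- minus WT, was 1.11 for Bid. That placed Bid ninth from the top, with 9 of 11326 genes (0.0795%) at or above it. Each of these is a difference of single arrays with no replicate check and no test. The shift of Bid held its sign and stayed between 1.13 and 1.17 when the arrays were centred, quantile normalized, or stripped of trends with intensity and gene span.

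**Figure D1:**
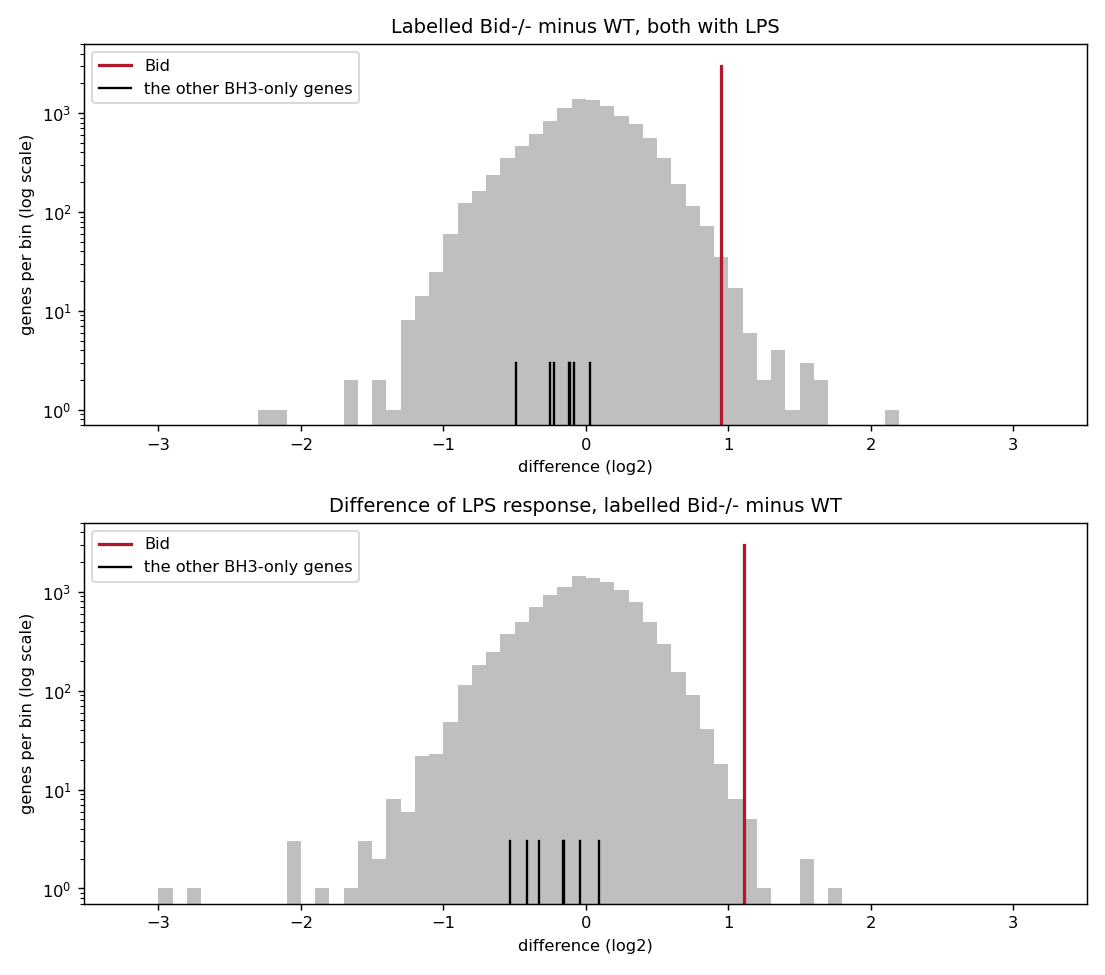
Histograms of the log2 difference between the LPS arrays (labelled Bid-/- minus WT, top, 11044 genes) and of the difference of LPS response (labelled Bid-/- minus WT, bottom, 11326 genes), with gene number per bin on a log scale. The red line is Bid, at 0.95 and 1.11 in the upper tail, and the black ticks are the other BH3-only genes, between -0.53 and 0.09.

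The genes next to Bid had smaller LPS differences than Bid under both labels. Bcl2l13, a Bcl-2-like gene and the measured protein-coding gene before Bid, read 6.11 and 6.29 on the arrays labelled Bid-/- with and without LPS, against 6.08 and 6.16 in WT with and without LPS. Mical3, an actin-regulating monooxygenase gene and the next after Bid, read 4.56 and 4.48 under the Bid-/- label with and without LPS, against 4.32 and 4.66 in WT with and without LPS. The differences of Mical3 had the signs of those of Bid and were smaller except without LPS, where the label difference was -0.18; its difference of response was 0.42, which 9.28% of genes reached or passed upward. The 3 genes whose profiles over the 4 arrays lay closest to that of Bid, after removal of each gene's own mean, were Ttc14, Btbd9 and Edrf1. Their root mean square distances from Bid were 0.076, 0.076 and 0.083 log2 units among 11326 genes. Like Bid, each was highest on the array labelled Bid-/- with LPS and lowest in WT with LPS; Btbd9, for example, read 7.61 and 7.26 under the Bid-/- label with and without LPS, against 6.77 and 7.25 in WT with and without LPS. With 4 arrays this likeness is a description alone.

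The bases before the transcript start of Bid used in the RefSeq promoter table held none of the 5 sequence motifs searched, which are named with the other promoters. The window is the 250 bases upstream of that start, of which 238 lie inside the annotated span of the gene, on the minus strand of GRCm38.p6 at chr6:120916825-120917074, printed 5′ to 3′ and in lower case throughout because no motif was found.
Bid: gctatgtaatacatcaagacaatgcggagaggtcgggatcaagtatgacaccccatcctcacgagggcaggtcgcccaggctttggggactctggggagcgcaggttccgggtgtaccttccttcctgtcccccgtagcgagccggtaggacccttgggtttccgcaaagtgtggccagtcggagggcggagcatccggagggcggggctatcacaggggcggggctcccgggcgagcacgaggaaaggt
Its GC content was 63.6%, against a median of 52.4% over 32851 promoter windows of RefSeq.

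**Figure D2:**
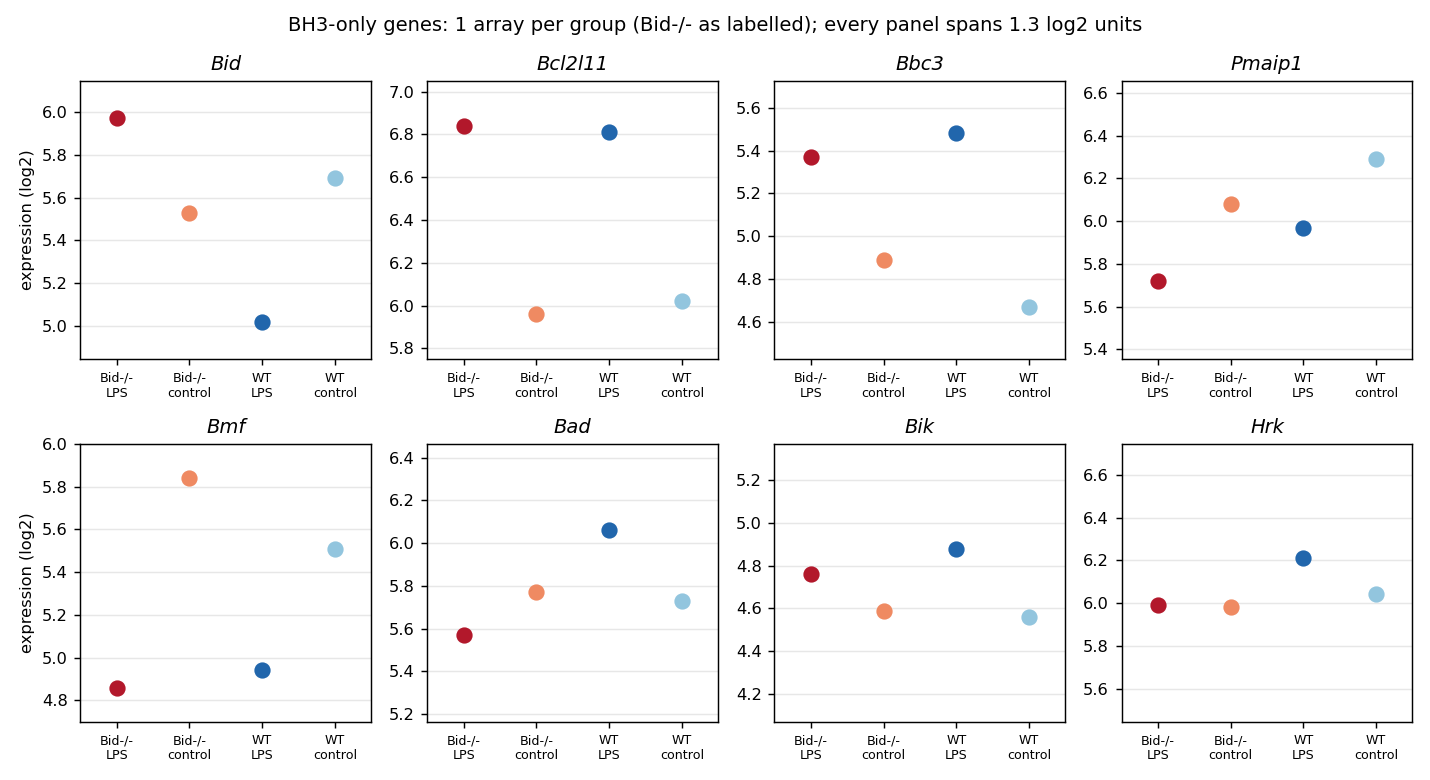
Expression (log2) of each BH3-only gene on the 4 arrays, 1 point per array, with Bid-/- as labelled; all panels span the same number of log2 units, so distances can be compared but levels of different genes cannot. Bcl2l11 and Bbc3 are higher and Bmf and Pmaip1 lower on both LPS arrays than on their controls, whereas Bid is higher with LPS under the Bid-/- label and lower with LPS in WT.

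Bcl2l11 encodes Bim, an activator of Bax and Bak that is induced when survival signals are withdrawn. It read 6.84 and 5.96 on the arrays labelled Bid-/- with and without LPS, against 6.81 and 6.02 on the WT arrays with and without LPS. Both LPS arrays were above both control arrays, and the readings under the 2 labels lay close together. The difference with LPS was 0.88 under the Bid-/- label and 0.79 in WT; 3.58% of genes compared were at least as far above 0 in each. In an additive limma fit of genotype label and LPS over 11326 genes, the mean LPS change was 0.835 (SE 0.125), with an adjusted p of 0.0554 in limma. Bcl2l11 therefore did not pass the threshold of 0.05, and its adjusted p ran from 0.00212 to 0.136 over 7 alternative settings, of which 4 put it past the threshold. Between labels it differed by 0.03 with LPS and by -0.06 without LPS.

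Bbc3 encodes Puma, which binds all the anti-apoptotic family members and is a classical target of p53 and of FoxO factors. It read 5.37 and 4.89 on the arrays labelled Bid-/- with and without LPS, against 5.48 and 4.67 on the WT arrays with and without LPS. Both LPS arrays again lay above both controls, with the wider gap in WT (0.81) than under the Bid-/- label (0.48). The mean change was 0.645 (SE 0.13) and did not pass in the additive fit (limma adjusted p = 0.0752), while the adjusted p lay between 0.00476 and 0.164 in 6 alternatives and passed in 3. The difference of response, labelled Bid-/- minus WT, was -0.33, and 17.6% of all genes were at least as far below 0.

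Bcl2l11 and Bbc3 had the largest upward LPS differences of the members under both labels. Their promoters are shown because both genes are known to respond to FoxO factors. The windows searched were 12 stretches of 250 bases upstream of RefSeq starts, for the 6 members with a window used here. Motifs were searched on both strands: FoxO (GTAAACA), AP-1 (TGANTCA), CRE (TGACGTCA), the NF-kB consensus and a single p53 decamer, with hits of 1 motif allowed to overlap. A FoxO match stood in 2 of the 12 windows, 1 each for Bcl2l11 and Bbc3, against 3.17% of all promoter windows. The NF-kB consensus was found in 1 window, of Bbc3, against 7.25% of all windows, and the p53 decamer in 1 window, of Bmf, against 7.13%. AP-1 and CRE matches were found in 0 of the 12 windows, against 6.75% and 1.55% of all windows. Capitals mark the matches. For Bcl2l11 and Bbc3, only the windows with a match are printed. The printed Bcl2l11 window is chr2:128125788-128126037 on the plus strand, and the printed Bbc3 windows are chr7:16309333-16309582 and chr7:16310011-16310260 on the plus strand, all in GRCm38.p6. A further window of each gene, chr2:128127325-128127574 for Bcl2l11 and chr7:16310181-16310430 for Bbc3, held none of the motifs. Both printed Bbc3 windows lie wholly inside the annotated span of the gene, before inner transcript starts, and the printed Bcl2l11 window lies outside that of its gene.
Bcl2l11, FoxO match: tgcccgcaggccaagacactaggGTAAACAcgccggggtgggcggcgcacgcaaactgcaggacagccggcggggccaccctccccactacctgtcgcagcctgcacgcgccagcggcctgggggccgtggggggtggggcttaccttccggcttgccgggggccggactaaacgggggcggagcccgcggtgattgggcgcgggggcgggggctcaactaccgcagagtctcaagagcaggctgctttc
Bbc3, NF-kB match: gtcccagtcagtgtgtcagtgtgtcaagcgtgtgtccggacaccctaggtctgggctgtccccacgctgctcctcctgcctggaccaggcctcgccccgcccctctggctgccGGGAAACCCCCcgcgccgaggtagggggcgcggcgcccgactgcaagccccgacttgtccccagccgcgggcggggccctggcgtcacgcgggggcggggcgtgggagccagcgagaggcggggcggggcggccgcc
Bbc3, FoxO match: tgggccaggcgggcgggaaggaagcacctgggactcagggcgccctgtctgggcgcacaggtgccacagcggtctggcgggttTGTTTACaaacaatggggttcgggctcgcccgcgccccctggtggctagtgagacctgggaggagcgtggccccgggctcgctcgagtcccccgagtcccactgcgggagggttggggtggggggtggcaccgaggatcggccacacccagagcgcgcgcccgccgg
These matches describe the letters of the windows and are not measured binding sites. Foxo3, a FoxO factor gene, read 6.49 and 7.07 on the arrays labelled Bid-/- with and without LPS, against 6.14 and 6.97 in WT with and without LPS, and did not pass for LPS (limma adjusted p = 0.0751). It was named after its values were seen.

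Pmaip1 encodes Noxa, which binds Mcl-1 and A1 and promotes the loss of Mcl-1. It read 5.72 and 6.08 on the arrays labelled Bid-/- with and without LPS, against 5.97 and 6.29 on the WT arrays with and without LPS. Its LPS differences were nearly equal, -0.36 under the Bid-/- label and -0.32 in WT. Of all genes compared, 25.3% and 26.8% went at least as far down in the same order, and the gene did not pass (limma adjusted p = 0.156).

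Bmf, a BH3-only protein held at the actin cytoskeleton through dynein light chain 2, gave the lowest LPS difference of the group under the Bid-/- label. It read 4.86 and 5.84 on the arrays labelled Bid-/- with and without LPS, against 4.94 and 5.51 on the WT arrays with and without LPS. Both LPS arrays lay below both control arrays. The difference was -0.98 under the Bid-/- label, which 1.77% of genes reached or passed downward, and -0.57 in WT, which 11.9% did. The mean change was -0.775 (SE 0.145, limma adjusted p = 0.0693), not past the threshold, with adjusted p between 0.00571 and 0.156 in 6 alternatives and a pass in 3. Most of the gap between the labels lay in the control arrays, where the array labelled Bid-/- was 0.33 above WT; with LPS it was 0.08 below (-0.08).

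Bad, a sensitiser that Akt phosphorylation hands to 14-3-3 proteins, showed the second case of opposite signs. It read 5.57 and 5.77 on the arrays labelled Bid-/- with and without LPS, against 6.06 and 5.73 on the WT arrays with and without LPS. The array of WT with LPS stood above the other 3, which spanned 0.20. With LPS the array labelled Bid-/- was 0.49 below WT (-0.49), a difference that 9.23% of genes reached or passed downward. The difference of response was -0.53, reached or passed downward by 7.81% of genes. Under the Bid-/- label the LPS difference of -0.20 turned to 0.05 after correction for intensity and gene span, so its sign under that label depends on the processing.

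Bik is a sensitiser that resides largely at the endoplasmic reticulum, and Hrk is best known in neurons deprived of trophic factors. They had the narrowest ranges of the members over the 4 arrays, 0.32 and 0.23. Bik read 4.76 and 4.59 on the arrays labelled Bid-/- with and without LPS, against 4.88 and 4.56 on the WT arrays with and without LPS. Its mean LPS change of 0.245 did not pass (limma adjusted p = 0.226). Hrk read 5.99 and 5.98 under the Bid-/- label with and without LPS, against 6.21 and 6.04 in WT with and without LPS, and its mean change of 0.09 did not pass (limma adjusted p = 0.681). All 4 readings of Hrk lay within 0.23.

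Across the 8 genes, LPS was followed by no common direction. With LPS, 5 of 8 were above their control and 3 below under the Bid-/- label, where the median was 0.09 (all genes -0.10), and again 5 above and 3 below in WT, where the median was 0.245 (all genes -0.05). Bcl2l11, Bbc3, Bik and Hrk were above 0 under both labels, and Bmf and Pmaip1 were below 0 under both. No member reached a 2-fold LPS difference: 0 of 8 under the Bid-/- label, where 4.35% of 10995 genes did, and 0 of 8 in WT, where 4.47% of 11129 genes did. At 1.5-fold, 2 of 8 did under the Bid-/- label (Bcl2l11 higher, Bmf lower), against 17.3% of all genes, and 3 of 8 in WT (Bcl2l11 and Bbc3 higher, Bid lower), against 16.9%. The size of the shifts was somewhat above that of all genes, with a median absolute difference of 0.40 against 0.26 under the Bid-/- label and of 0.45 against 0.26 in WT. The additive limma fit called 0 of 8 members for LPS, where it called 3.24% of 11326 genes, and 4 of 8 had an unadjusted limma p under 0.05, against 28.8% of all genes. Bcl2l11, Bbc3 and Bmf passed, 3 of 8 each time, with a robust variance prior (13.9% of all genes called), with random noise added below the rounding step (16.3%) and after quantile normalization (17.0%). With the floor at the 75th percentile Bcl2l11 was the only member left and passed, where 13.6% of genes did.

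**Figure D3:**
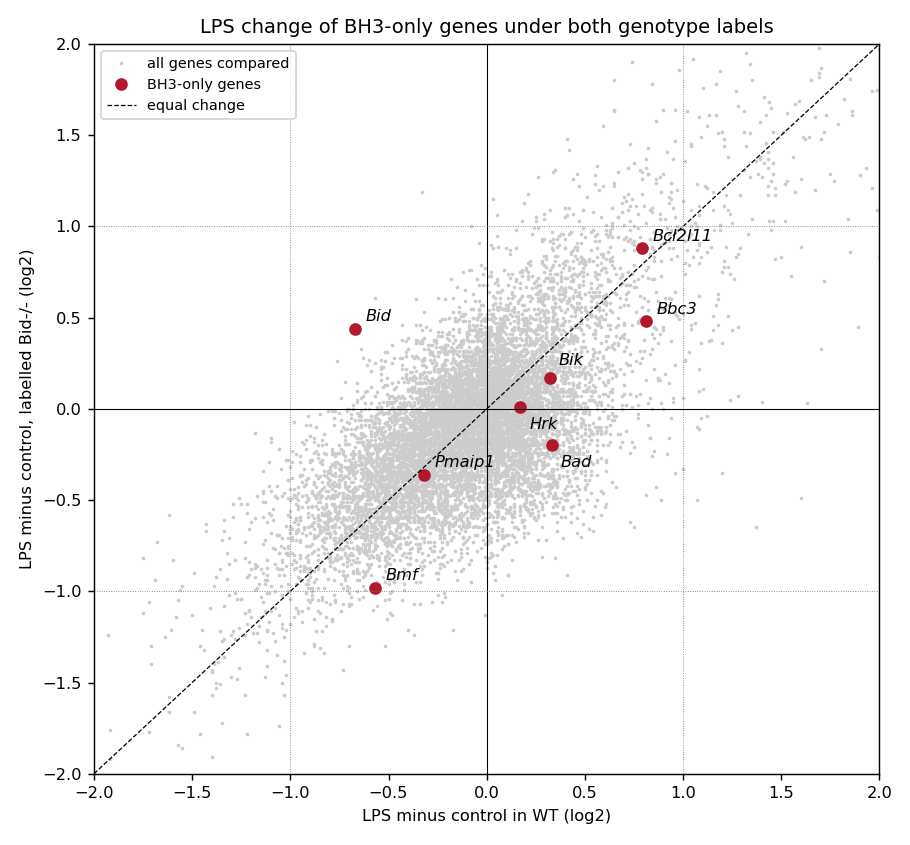
LPS minus control (log2) in WT on the horizontal axis against the same difference under the Bid-/- label on the vertical axis; grey points are all genes compared under both labels (those beyond the axis limits are not drawn), red points the 8 BH3-only genes, dotted lines a 2-fold change and the dashed line an equal change. Bid lies alone among the 8 in the upper left, at -0.67 and 0.44, and Bcl2l11 lies nearest to the dashed line among the members that were higher.

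Between the labels, the members without LPS were close to each other. Of 8 members 4 were above and 4 below 0 (labelled Bid-/- minus WT), from -0.21 for Pmaip1 to 0.33 for Bmf, with a median absolute difference of 0.11, as over all genes (0.11). No member differed 2-fold (0 of 8), against 0.431% of 10909 genes. With LPS, 2 of 8 were above 0, Bid at 0.95 and Bcl2l11 at 0.03, and 6 were below, with a median of -0.115 (all genes 0.01). The sign of Bcl2l11 turned to -0.03 and -0.11 after correction for intensity, or for both intensity and gene span. Again 0 of 8 differed 2-fold, against 0.815% of 11044 genes, and Bid alone was past 1.5-fold, against 10.8% of genes. The difference of response reached 2-fold for 1 of 8 members, Bid, against 0.786% of 11326 genes. The additive fit called 0 of 8 members for the genotype label, with 0 at an unadjusted limma p under 0.05; it called 0 of all 11326 genes, of which 6.26% had an unadjusted p under 0.05. The limma adjusted p for Bid was 0.651 (mean label difference 0.395, SE 0.295). The fit averages the label difference over the arrays with and without LPS and takes the difference of response as error.

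The genes around the BH3-only proteins were read in 8 pathway lists of 84 genes, 63 of which reached the floor and were tested. The additive fit called 4 higher and 3 lower with LPS, against 1.68% and 1.56% of all genes, and 0 for the label. On the death receptor route to Bid cleavage, 1 of 7 genes rose and 1 fell, with 4 of 7 at an unadjusted limma p under 0.05. Cflar, which encodes the caspase-8 inhibitor FLIP, rose, with 9.94 and 8.83 on the arrays labelled Bid-/- with and without LPS, against 9.86 and 8.78 in WT with and without LPS (limma adjusted p = 0.0454). Tnfsf10, which encodes the death ligand TRAIL, fell, with 4.89 and 5.97 under the Bid-/- label with and without LPS, against 3.85 and 5.19 in WT with and without LPS (limma adjusted p = 0.0337). It was also 1.04 higher under the Bid-/- label than in WT when both had LPS. Casp8, the protease that cleaves Bid, was 0.49 lower with LPS under the Bid-/- label (-0.49) and 0.82 lower in WT (-0.82), and did not pass (limma adjusted p = 0.101); it was named after its values were seen.

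Among binding partners, none of the anti-apoptotic genes passed (0 of 5, with 2 at an unadjusted limma p under 0.05), and neither did the pore-forming effectors Bak1 and Bok (0 of 2, with 0 unadjusted). Mcl1, the Noxa partner, was 0.17 lower with LPS under the Bid-/- label (-0.17) and 0.36 lower in WT (-0.36). Bcl2a1c, of the A1 family, was 0.86 and 1.12 higher with LPS (labelled Bid-/- and WT; limma adjusted p = 0.0576); it is uncertain, because 3 further probe sets carry 4 near-identical A1 symbols and were not used. Bak1 was 0.31 lower with LPS under the Bid-/- label (-0.31) and 0.05 higher in WT, and Bok 0.25 lower (-0.25) and 0.31 higher. These 4 genes were named for their roles after their values were seen. Among 5 docking, NOD and DNA damage kinase partners of Bid 0 passed for LPS (2 unadjusted). With LPS, 4 of these 5 were above 0 and 1 below (labelled Bid-/- minus WT), with a median of 0.82 (all genes 0.01). Atm, a DNA damage kinase that phosphorylates Bid, was 1.23 higher under the Bid-/- label than in WT with LPS, at 6.28 against 5.05. Of all genes compared, 0.118% were at least as far above 0. Of 8 genes of the mitochondrial death machinery 0 passed (3 unadjusted), with list medians of -0.175 under the Bid-/- label and -0.155 in WT.

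Of 10 transcription factors known to act on BH3-only genes, 1 rose and 0 fell. Egr1, an immediate early factor, rose by 1.61 under the Bid-/- label and by 1.86 in WT (limma adjusted p = 0.0272). Of 15 kinases and scaffolds that hold BH3-only proteins, 1 rose: Pim1, a survival kinase that phosphorylates Bad, read 10.81 and 9.19 under the Bid-/- label with and without LPS, against 10.53 and 9.00 in WT with and without LPS (limma adjusted p = 0.0298). The p53 targets other than BH3-only genes went both ways, with 1 of 11 that rose and 2 that fell, and medians of -0.51 under the Bid-/- label and -0.33 in WT. Gadd45a, a growth arrest gene, rose by 2.33 and 2.74 (labelled Bid-/- and WT; limma adjusted p = 0.0265). Sesn1, a sestrin, read -2.47 and -2.52 with LPS and Trp53inp1, a p53-induced nuclear protein gene, -1.23 and -1.09 in the same order (limma adjusted p = 0.0209 and 0.034). An unadjusted limma p under 0.05 for LPS was found for 8 of the 10 transcription factors, 4 of the 15 kinases and scaffolds and 8 of the 11 p53 targets, against 28.8% of all genes. Among the cell type markers, Cx3cr1, the fractalkine receptor of microglia, was the 1 of 11 microglia markers that fell, at -1.41 and -1.12 (limma adjusted p = 0.045), and 6 of the 11 had an unadjusted limma p under 0.05. The microglial receptor gene Fcrls was lower under the Bid-/- label than in WT both with LPS (-1.06) and without LPS (-0.94). The microglia list did not share this without LPS: 7 of 11 markers were above 0 and 4 below (labelled Bid-/- minus WT), with a median of 0.03. With LPS, 3 of the 10 microglia markers compared were above 0 and 7 below, with a median of -0.28. The smooth muscle gene Tagln was 1.43 lower under the Bid-/- label with LPS (-1.43) and 0.66 higher without LPS. Of the 8 fibroblast and mural markers compared with LPS, 5 were above 0 and 3 below (labelled Bid-/- minus WT), with a median of 0.17. Without LPS all 7 compared were above 0, with a median of 0.66 (all genes 0.01). Their difference of response was above 0 for 1 of 8 and below 0 for 7, with a median of -0.675. None of the astrocyte (0 of 5), oligodendrocyte lineage (0 of 5), fibroblast and mural (0 of 8) or neutrophil and lymphocyte (0 of 1) markers was called for LPS, with 1, 1, 1 and 0 at an unadjusted limma p under 0.05.

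**Figure D4:**
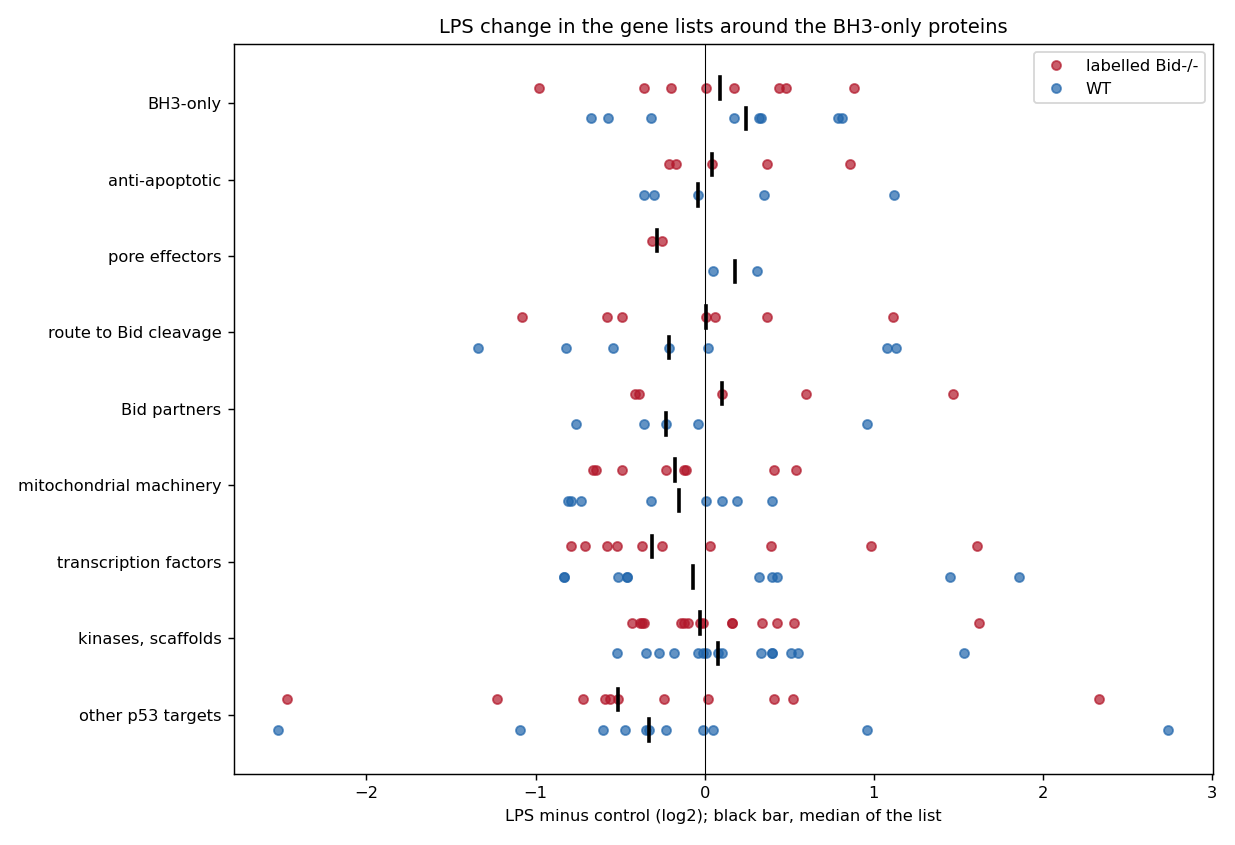
LPS minus control (log2) for each gene of the BH3-only group and of the 8 pathway lists that reached the floor under both labels, with red points for the Bid-/- label above blue points for WT and black bars for list medians. The BH3-only genes spread from -0.98 to 0.88, and the genes farthest from 0 are the p53 targets Gadd45a and Sesn1.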

How the data were processed

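RNA of 4 groups was measured on 4 arrays, 1 per group. The authors deposited 1 table of log2 values for 28944 probe sets; per the submitters' processing notes the tools were RMA, Partek 6.2 and Affymetrix Expression Console, whose roles are not stated. The log base is not stated and was taken from RMA and the range of 1.4 to 13.5; RMA also removes any shift shared by all genes. The number of arrays limits the precision.

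Probe sets with 1 gene symbol (21789) were kept, not those with several (1621) or none (5534), and the probe set of highest mean stood for a gene. A gene entered a comparison when its higher array reached 4.26. Pairs of arrays were compared by difference alone. Genotype label and LPS were fitted additively in R 4.3.3 with limma 3.58.1 (intensity trend, Benjamini-Hochberg over 11326 genes, threshold 0.05). It has 1 residual degree of freedom, and 169 genes had a residual of 0 because the deposited values are rounded. The error of the fit is the difference of LPS response between the labels, moderated over all genes. No group has replicates, so the p-values do not measure variation between cultures or between repeated arrays. Nothing says whether arrays came from separate cultures. Promoter sequences are RefSeq's (GRCm38.p6). Sequences of Bik and Pmaip1 and all protein sequences were not used here.

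The members and lists were chosen with earlier results of these data known. Named genes were the members, the nearest profiles of Bid (3) and of any other member with a 2-fold range (none had one), the neighbours of Bid, up to 3 called and 2 label-dependent genes per list, and Tnf and Il6; exceptions are marked.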

Additional observations from a re-analysis of the deposited data

Results flagged for a closer look

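Bid and Bad were picked out because their LPS changes had opposite signs under the 2 labels. For Bid the change was 0.44 under the Bid-/- label and -0.67 in WT, a difference of 1.11. For Bad it was -0.20 and 0.33, a difference of -0.53. The difference between labels also changed sign with LPS for 6 members: Bid and Bad again, Bik (-0.12 with and 0.03 without LPS, a difference of -0.15), Bmf (-0.08 and 0.33, -0.41), Bbc3 (-0.11 and 0.22, -0.33) and Bcl2l11 (0.03 and -0.06, 0.09). With 1 array per group none of these differences was tested. Over 11326 genes the difference of response had an SD of 0.352, and the values of Bik, Bbc3 and Bcl2l11 lie inside it. The untreated arrays differed with an SD of 0.19 over all probe sets.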

How the results depend on the processing

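No paired analysis was possible because each group has 1 array and the labels carry no replicate numbers. Of 200 recomputed member differences 13 moved by more than the SD between the untreated arrays (0.19), and 4, of 3 differences, changed sign. For Bid, the LPS difference in WT was -0.48 with intensity and gene span trends removed, and that under the Bid-/- label was 0.64 with the intensity trend removed and 0.69 with both removed. In these settings Bcl2l11 became 2-fold higher with LPS: 1 member with both trends removed in WT, and 1 with either removal under the Bid-/- label. With both removed, 308 genes were 2-fold higher and 137 lower among 11124 in WT. Under the Bid-/- label 362 were higher and 104 lower among 10990. With the intensity trend alone removed, 386 were higher and 102 lower among 10995 under that label. At 1.5-fold 3, 2 and 1 members were counted for LPS in WT, LPS under the Bid-/- label and the label with LPS. Of all genes, 16.9%, 17.3% and 10.8% were counted in the same order. With the floor at the 75th percentile (6.34) 1 member was left for the difference of response and 0 reached 2-fold, against 1 otherwise. The member left was Bcl2l11, at 0.09. Bid, which read at most 5.97, lay below that floor, so its difference was not evaluated there. Among all 6056 genes left, 10 were at least 2-fold higher and 52 lower. The number of LPS calls of limma changed with the genes, the values and the variance settings used. The 367 genes became 0 without a floor, 822 with the higher floor, 1843 with noise inside the rounding and 1928 after quantile normalization. With other variance settings they became 245 without the intensity trend and 1576 with a robust prior. Of the members 1 passed with the higher floor (Bcl2l11, the only member left), and 3 (Bcl2l11, Bbc3 and Bmf) with the robust prior, the rounding noise and quantile normalization. For the label, 40 genes were called after quantile normalization and 3 with rounding noise, no member among them. The cause was not tested. Signal over background was not given, so low readings cannot be set against it.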
